A study of Schizosaccharomyces pombe
Saccharomyces cerevisiae with 8 samples.

Results

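The comparison asks how the steady-state RNA of budding yeast, Saccharomyces cerevisiae, differed after auxin-induced removal of Med14 and Med17, which transcripts were left more or less intact, and how functions compare among genes of equal starting level. Members are all features of the total RNA table with a mean of at least 10 raw counts over its 4 libraries, 5589 of 6518 features in that table and of 6519 in the series. The groups are 2 libraries of cells given the carrier DMSO and 2 of cells given 500 µM auxin (3-indole acetic acid), in both cases over 30 min, with a final 6 min pulse of 5 mM 4-thiouracil. All 4 came from strain GZY380, mating type alpha, grown to midlog phase in YPD at 30 °C. The strain carried ade2Δ::hisG, his3Δ200 and leu2Δ0, with lys2Δ0, met15Δ0, trp1Δ63 and ura3Δ0 beside them. It also carried OsTIR1, the rice auxin receptor, under the GPD1 promoter at his3, and degron-tagged MED14-3HA-IAA7-URA3 with MED17-3V5-IAA7-kanMX6. The DMSO cells thus held the same tags and receptor. An auxin-treated strain without them was not analysed here, so a response to auxin itself cannot be told apart from loss of the proteins. Cells were mixed with Schizosaccharomyces pombe at 1 part to 3 before extraction, and the series design calls replicates 1 and 2 biological.

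Mediator is a large coactivator complex that links DNA-bound activators to RNA polymerase II at promoters. Med14 joins its head, middle and tail modules, and Med17 is the scaffold of the head. A total RNA level reflects synthesis and decay together, so a transcript that is made at a lower rate disappears only as fast as its existing copies are degraded. Ribosomal protein mRNAs and the RNAs of polymerase III are known as abundant products of growing yeast.

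The 4 libraries held 17491251 and 13004246 counts in DMSO and 10862028 and 13970025 in auxin. The mRNAs of the tagged proteins do not report protein loss, since the degron acts on the protein. RGR1 (Med14, chromosome XII, 275378 to 278626) read 3249 and 3667 normalized counts in DMSO and 1294 and 1564 in auxin. SRB4 (Med17, chromosome V, 198812 to 200875) read 2270 and 2812 against 617 and 742. Both fell without overlap of the groups. Cell type followed the label, with the a-factor receptor STE3 of alpha cells at 4036 and 4868 normalized counts in DMSO and the a-cell gene AGA2 at 0 or 1 raw count in every library. BAR1, another a-cell gene, gave 10 to 22 raw counts. Of the features in the table, 41.9% carried a gene name, so lists cover only named members.

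Nearly the whole transcriptome was lower after auxin. edgeR's quasi-likelihood test with the authors' size factors called 5157 features lower (92.3% of all tested) and 43 higher (0.769%), at a Benjamini-Hochberg adjusted p of 0.05. The median log2 fold change was −1.85, which leaves 27.7% of the DMSO level. The library medians stood at 95.4% and 104.6% of the DMSO mean for DMSO and at 25.8% and 30.2% for auxin, with no overlap between the groups (exact two-sided permutation p = 0.33, the smallest that 2 against 2 libraries allow). Fewer cells and less RNA per cell cannot be told apart in such libraries. Every direction against DMSO rests on the deposited size factors: with TMM scaling, which assumes that most features do not change, the median was −0.09 and the calls were 1805 lower and 1652 higher.

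The size of the fall depended on how abundant a transcript was. Features were placed in 20 classes of equal size by mean DMSO normalized count per kb of listed length, from class 1, lowest, to class 20, highest. The median log2 fold change was −1.60 in class 1, −2.18 in class 2 and −2.01 in class 10. It then rose to −1.58 in class 16, −1.20 in class 18, −0.90 in class 19 and −0.29 in class 20. The count minimum is a mean over all 4 libraries, so features of low DMSO count could enter class 1 through their auxin libraries. With levels from DMSO replicate 1 and folds against replicate 2, class 1 stood at −1.51 and class 20 at −0.42. With the replicates exchanged they stood at −1.80 and −0.15. Of the features in class 12, 99.6% were called lower, against 40.9% in class 20. Auxin replicate 1 lay below replicate 2 in all 20 classes, and both lay below both DMSO libraries. Class 20 supplied 52.5% and 53.9% of all counts in DMSO and 69.4% and 68.4% in auxin.

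**Figure D1:**
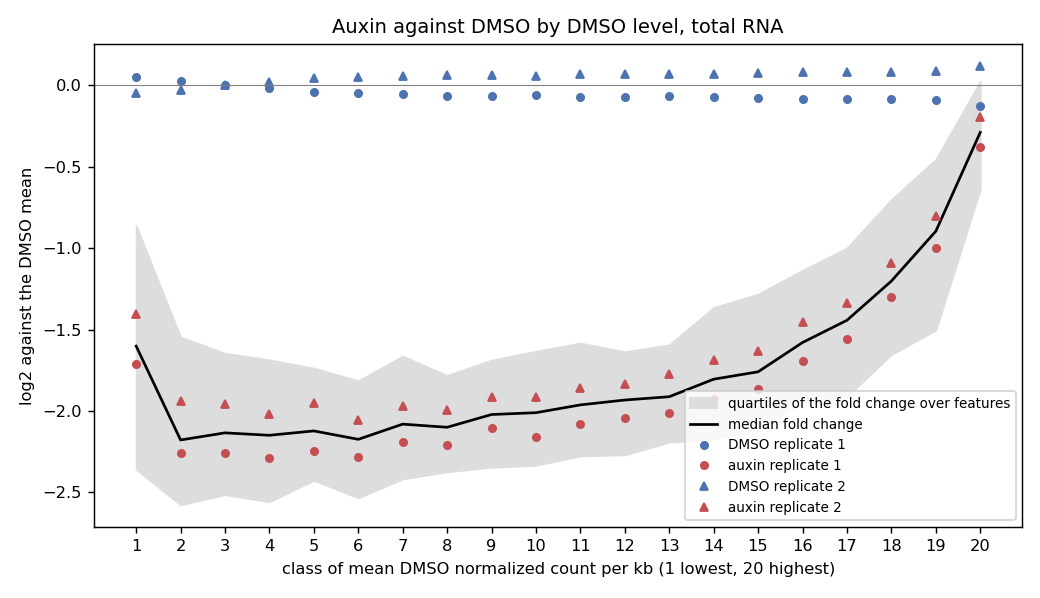
The x axis is the class of mean DMSO normalized count per kb and the y axis the log2 level against the DMSO mean. Points are library medians, the line is the median fitted fold change and the band its quartiles over features. The fall is deepest in class 2, at −2.18, and smallest in class 20, at −0.29.

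Functions were therefore set against the median of nuclear protein-coding features in the same class. A second edgeR test placed that median as an offset in the auxin libraries and asked whether a feature had fallen further or less than its class. It called 923 features further fallen (16.5% of all tested) and 1155 less fallen (20.7%). A common scaling cancels in these differences. With TMM 1304 features were further and 1585 less fallen, among them 892 of the 923 and 1135 of the 1155. They leaned on the number of DMSO libraries. Without DMSO replicate 1 the calls were 352 further and 561 less, and without DMSO replicate 2 they were 400 and 538. Without auxin replicate 2 the further fallen were 611. Over the 49 gene lists with at least 5 tested members, 29 had a median difference above 0 and 20 below, from −1.18 to 1.03 on the log2 scale. The lists are described by counts and medians, to be read beside 16.5% and 20.7%. Over all tested features the median difference was 0.00, with quartiles at −0.36 and 0.41.

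**Figure D2:**
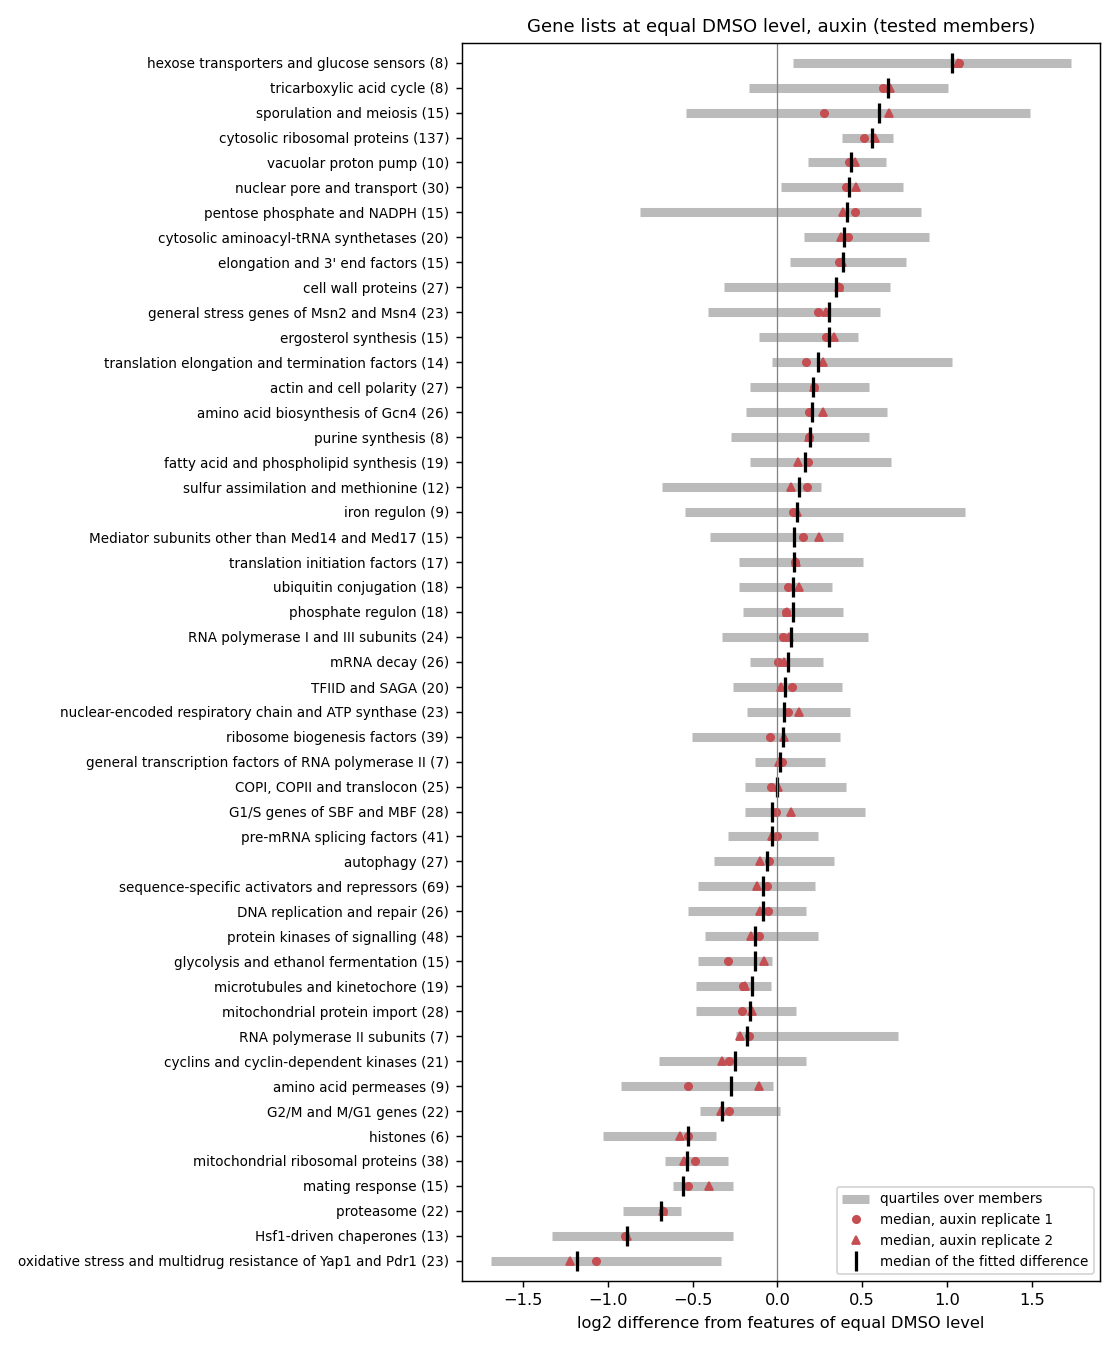
The x axis is the log2 difference from features of equal DMSO level, and each row is a gene list with its number of tested members. Black ticks are medians of the fitted difference, bars the quartiles over members, and red points the medians in each auxin library. The redox and drug-resistance list is lowest, at −1.18, and the hexose transporter list highest, at 1.03.

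The redox and multidrug resistance genes driven by the activators Yap1 and Pdr1 stood lowest. Of 23 tested members, 17 were further fallen and 1 less, with 24.3% of the DMSO level left where equal-level features kept 43.2%. The median difference was −1.07 in auxin replicate 1 and −1.22 in replicate 2. GPX2 (chromosome II, 707528 to 708016), a glutathione peroxidase, read 8145 and 9480 normalized counts in DMSO and 1345 and 1339 in auxin. OYE3 (chromosome XVI), an NADPH oxidoreductase of the old yellow enzyme family, read 9962 and 9940 against 966 and 1012. The groups lay far apart for both, whose level classes kept 82.3% and 53.0%. GPX2 lay in class 20, where the 149 protein-coding features other than ribosomal protein genes kept 71.4%. Differences were −2.43 ± 0.21 for GPX2 (SE, 2 libraries a group, edgeR adjusted p = 5.05e-29) and −2.42 ± 0.21 for OYE3 (2.35e-28). The most abundant member, SOD1, the cytosolic superoxide dismutase, kept 40.6%. CYS3, of cysteine synthesis, was the member called less fallen, at 0.47.

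Chaperones driven by heat shock factor Hsf1 were low as well. Of 13 members 8 were further fallen and 1 less, the median difference being −0.88, with 38.9% left against 83.1% at equal level. Among the alternatives that median difference lay between −1.03 and −0.62. The list's median class was 20, where protein-coding features other than ribosomal protein genes kept 71.4%. HSP82, the inducible Hsp90, read 79358 and 86522 normalized counts in DMSO and 19798 and 22644 in auxin. Its near-identical constitutive copy HSC82, the most abundant member, kept 69.3% and did not pass the equal-level test, with a difference of −0.25. Reads shared by such copies may be split in a way that was not given. SSA4, a heat-inducible Hsp70, had the lowest difference, −1.81 (−1.07 without DMSO replicate 1), and SSA3, another Hsp70 of low level, the highest, 1.06. The endoplasmic reticulum chaperone KAR2 (−1.26) and the mitochondrial pair HSP60 (−0.87) and HSP10 (−1.29) fell further too.

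Proteasome genes lay low too. Of 22 members, 17 were further fallen and 1 less, with a median difference of −0.69 that was −0.68 in each auxin library. RPN11, the deubiquitinating lid subunit, kept 21.9% where its class kept 53.0%. BLM10, an alternative activator, was the member called less fallen, at 0.77. PUP3, a core subunit and the most abundant member, kept 35.9%. In the deposited annotation, the term for the lid subcomplex held 10 tested genes, all 10 further fallen, with a median of −0.88.

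Nuclear genes for the mitochondrial ribosome fell further than their abundance class. Of 38 members 21 were further fallen and 0 less, with a median difference of −0.53, or 21.3% left against 29.2%. MRPS18 (23.2% left) was the most abundant, MRPL36 had the lowest difference (−0.95) and MRPL44 the highest, 0.40, which did not pass the test. The wider annotation term for mitochondrial translation, 98 genes, gave −0.49, with 46 further and 5 less. These genes are short, and ranking features by count without dividing by length brought the list median to −0.25. Nuclear genes of the respiratory chain and ATP synthase had a median of 0.04, with 2 further and 6 less among 23. It was 0.33 without dividing by length and −0.04 with a minimum of 50 counts, and the difference between the lists was not tested. Cytochrome c gene CYC1 was their lowest member, at −1.30, and INH1, an ATP synthase inhibitor, the highest, at 1.35.

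Histone, mating and G2/M genes also had medians below 0. All 6 histone genes with a name were below their class and 4 were further fallen, the median being −0.53 (−0.20 without dividing by length). HTA2, a histone H2A gene and the most abundant of them, read 4853 and 5677 normalized counts in DMSO and 1193 and 1266 in auxin, a difference of −1.82, which was −1.12 without dividing by length. HTB1, a histone H2B gene, did not pass the test, at −0.26, and histone gene copies share reads. In the mating response list, 6 of 15 were further fallen and 0 less, with a median of −0.56, which was −0.36 without DMSO replicate 1. The members named by level and by difference were PRM5 (−0.37, not called), PRM6 (−1.27) and MSG5, a phosphatase of the pathway (0.14, not called). Among 22 genes of G2/M and M/G1 the median was −0.33, with 5 further fallen, 0 less and 17 neither. That 22.7% is near the 16.5% of all features. CDC5, the polo kinase and the most abundant of them, differed by −0.56. CLN3, in class 1, was the lowest at −2.38, and YHP1 the highest at 0.43, which did not pass the test. Cyclins and cyclin-dependent kinases (21) had a median of −0.249, with 7 further and 1 less. Among the alternatives that median lay between −0.325 and −0.191. The lists of G1/S genes and of DNA replication and repair lay near 0 and changed sign among the alternatives. G1/S genes (28) had a median of −0.03, with 4 further and 8 less, and genes of DNA replication and repair (26) had −0.09, with 7 further and 4 less.

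Genes of the protein synthesis machinery lay on the other side. Of 137 cytosolic ribosomal protein genes, 130 were above the other genes of their class, with a median difference of 0.56 (0.51 and 0.57 in the auxin libraries). Set against the whole class, ribosomal protein genes included, 42 were called less fallen and 5 further. Their median level was 101% of DMSO against 71.4% at equal level, and with TMM scaling their median log2 fold change was 1.78. Of the 101 in class 20, 7 were called lower, against 93 of the 149 other protein-coding features there. Levels within class 20 were not equal, however: the median was 38808 normalized counts per kb for the ribosomal protein genes and 13850 for the others. With 10 coarser classes the list median was 0.89 and with 40 finer ones 0.59. RPS31, a fusion of ubiquitin and a small-subunit protein and the most abundant of them, read 89435 and 122073 normalized counts in DMSO. Its auxin libraries read 116404 and 125805, and the groups overlapped. RPL22B, the minor copy of a paralog pair, had the lowest difference, −1.11, and RPS15 the highest, 1.77, at a level far below that of RPS31.

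The 20 cytosolic aminoacyl-tRNA synthetases, which charge tRNAs, kept 83.1% where equal-level features kept 51.9%. Of these, 18 were above their class, 9 were less fallen and 0 further. The median was 0.39, and 0.67 with a minimum of 50 counts. SES1, the seryl enzyme and the most abundant, kept 80.3% in class 20, a difference of −0.03. YNL247W, the cysteinyl enzyme in the deposited annotation, read 3392 and 3431 normalized counts in DMSO and 2579 and 3249 in auxin, the highest difference at 1.36 ± 0.20 (edgeR adjusted p = 1.85e-10). KRS1, the lysyl enzyme, was lowest at −0.16 and was not called. Elongation and termination factors had a median of 0.24, or 0.50 with 10 coarser classes, with 5 of 14 less fallen and 1 further. Within that list the isoforms of eIF5A parted: HYP2, the aerobic form, fell further (−0.74), and ANB1, the hypoxic form, was less fallen (2.30). Initiation factors (17 genes) had a median of 0.10, which was 0.34 without DMSO replicate 1 and −0.02 without dividing by length. Ribosome biogenesis factors (39 genes) had a median of 0.04, with 11 further and 9 less.

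Hexose transporters and glucose sensors had the highest list median, 1.03, and 1.07 in each auxin library. HXT3, a low-affinity transporter and the most abundant, read 4870.1 and 6342 normalized counts in DMSO and 3036 and 3729 in auxin, which is 60.4% against 42.9% at equal level. HXT1, another low-affinity transporter, read 1619 and 2185 against 1396 and 1796, overlapping groups, and was less fallen by 1.55. HXT6 was the highest at 2.68 and was also called higher than DMSO, from raw counts of 21 and 7 to 27 and 46. Its near-identical neighbour HXT7 differed by 1.70, and reads of the pair cannot be assigned with certainty. The sensor RGT2 did the opposite, with 659 and 673 against 83 and 118 and a difference of −0.52. The other sensor, SNF3, was at −0.39 and did not pass the test. In all, 5 of the 8 were less fallen and 1 further.

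The vacuolar proton pump, which acidifies the vacuole, had all 10 tested subunits above their class, 5 less fallen and 0 further. The median was 0.43, with 0.26 without DMSO replicate 1 and 0.71 without dividing by length. VMA3, the most abundant, was also the lowest, at 0.04, and VMA9 was the highest, at 1.18. Genes of the nuclear pore and of nuclear transport had a median of 0.42 with 14 of 30 less fallen and 2 further, a value that was 0.11 without dividing by length. KAP122, an import receptor, read 1816 and 1803 normalized counts in DMSO and 1431 and 1930 in auxin, overlapping groups, where its class kept 24.7%. YRB1, a Ran-binding protein, was the most abundant, at 0.00, and NUP53 the lowest, at −0.49. In the list of the tricarboxylic acid cycle and linked enzymes, 4 of 8 genes were less fallen and 1 further. Its median of 0.65 was 1.10 without DMSO replicate 1 and 0.16 without DMSO replicate 2. PYC2, a pyruvate carboxylase, was highest at 1.46 and CIT2, the peroxisomal citrate synthase, lowest at −0.55. Among 27 cell wall genes the median was 0.34, with 11 less fallen and 2 further, and it was 0.62 without DMSO replicate 1 and 0.21 without DMSO replicate 2. GAS1, a glucanosyltransferase and the most abundant of them, was the lowest at −1.21, and YLR194C, annotated as a cell wall constituent, the highest at 1.18.

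Most lists of the transcription machinery had medians near 0. The 15 Mediator genes other than RGR1 and SRB4 had a median difference of 0.10, with 3 further and 2 less (0.26 without auxin replicate 1 and 0.04 without DMSO replicate 1), between ROX3 (Med19) at −0.97 and SRB2 (Med20) at 0.91. SRB4 was at −0.14 and did not pass the test, and RGR1 was at 0.53 (edgeR adjusted p = 0.0197), which was −0.02 when level was not divided by length. TFIID and SAGA genes (20, median 0.05, 2 further and 4 less) ranged from ADA2 at −0.65 to TAF2 at 1.02. General transcription factors (7) had a median of 0.01. The 7 polymerase II subunit genes had a median of −0.18, which was 0.13 without dividing by length and −0.10 without DMSO replicate 2, with 0 further and 3 less, among them the large subunits RPO21 (1.18) and RPB2 (0.56). Elongation and 3′ end factors lay higher, at 0.39, with 6 of 15 less fallen and 1 further, and at 0.19 without dividing by length. The histone chaperone gene SPT16 was their most abundant (0.64), HRP1 the highest and CFT2, a cleavage factor subunit, the lowest (−0.60). Sequence-specific activators and repressors, 69 genes, had a median of −0.09, with 14 further and 8 less. HAC1, the unfolded protein response activator and the most abundant, kept 47.4% of its level (−0.80). GAL4, the activator of galactose genes, went from 65 and 82 normalized counts to 4 and 7, the lowest of the list at −2.16. CRF1, a corepressor of ribosomal protein genes, was the highest at 2.39.

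Among named protein-coding genes with a mean of at least 100 counts, the 12 largest further falls ran from −2.43 (GPX2) to −1.68 (HSP82). Besides genes already described they held ATR1, a drug efflux pump (10.3% left, −2.06), MBF1, a coactivator of Gcn4 (19.4%, −2.08), and CCS1, the copper chaperone of superoxide dismutase (20.5%, −2.01, or −1.31 without dividing by length). ZWF1, glucose-6-phosphate dehydrogenase, the NADPH-making entry to the pentose phosphate pathway, read 4824 and 3106 normalized counts in DMSO and 409 and 491 in auxin. Its difference of −1.69 was −1.09 without DMSO replicate 1. The pentose phosphate and NADPH list (15 genes), which holds OYE2 and OYE3, did not fall as a set. Its median was 0.41, or 0.13 without dividing by length, with 4 further fallen and 6 less. RPE1 was its highest member, at 1.35. The rest of these 12 were OYE2, HTA2, SSA4, the nitroreductase-like HBN1 and the glutathione transferase ECM4, between −1.83 and −1.71. At the other end, the 12 ran from ARG82, an inositol polyphosphate kinase (1.87), to SPO21, a spindle pole component of meiosis (3.97). SWI1, a subunit of the SWI/SNF remodeller, read 465 and 416 normalized counts in DMSO and 446 and 603 in auxin. It was less fallen by 2.39, and its groups overlapped in these values, as its class kept 22.7%. SRO77 of exocytosis (2.08), DIN7, a mitochondrial nuclease (2.37), YSR3 of sphingolipid metabolism (2.19) and CIS1 of autophagy (1.93) were likewise near their DMSO level. All 4 were in the 5 lowest classes.

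**Figure D3:**
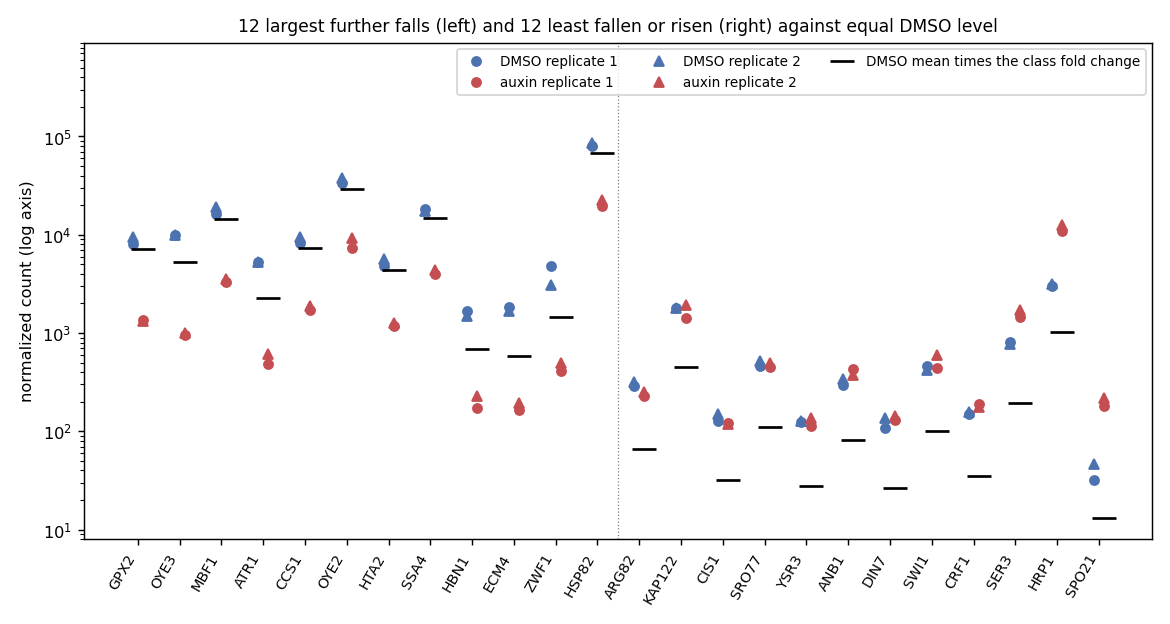
The y axis is the normalized count on a log scale, and each gene on the x axis has 2 DMSO (blue) and 2 auxin (red) libraries. Black dashes mark the DMSO mean times the fold change of the gene's level class. On the left, red points lie below the dash, as for GPX2 at 1345 and 1339. On the right they lie above it, as for HRP1 at 10969 and 12623.

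Feature kinds differed in their place against equal level. The 72 tested small nucleolar RNAs had a median difference of 0.14, with 9 further and 18 less. In class 20 the 20 snoRNAs stood at −0.19, 16 of them below their class, and in classes 1 to 19 the other 52 stood at 0.42. The most abundant, snR37, read 197309 and 199070 normalized counts in DMSO and 156427 and 203140.0 in auxin. SCR1, the signal recognition particle RNA, made by polymerase III, read 976261 and 1071890.0 against 1015610.0 and 1066560.0. RPR1, the RNase P RNA and another product of that polymerase, read 64197 and 67102 against 67548 and 67609. Neither passed either test, and with TMM scaling both were called higher, at log2 fold changes of 1.79 and 1.81. The U2 snRNA LSR1 kept 85.6%. All 32 tested features of the mitochondrial chromosome, which its own polymerase transcribes, were above their class, with a median of 2.39, 31 less fallen and 15 called higher than DMSO. The most abundant, OLI1, an ATP synthase subunit, read 6856 and 10058 against 9423 and 12425. Dubious reading frames, 115 in number, had a median of 0.56, with 35 less fallen and 5 further. Of these, 102 overlap another feature, and whether the counting used strand was not given, so their reads cannot be told from those of the overlapping gene. Their most abundant, YDR154C, kept 78.1%. The pseudogenes YFL056C and YLL016W were both further fallen, at −0.46 and −0.62. Of 120 nuclear tRNA genes 2 passed the count minimum. Their log2 fold changes were −1.82, for tL(UAG)L1, and 0.45, where equal-level features had a median of −2.13. Both were above their class and 1 was called less fallen.

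**Figure D4:**
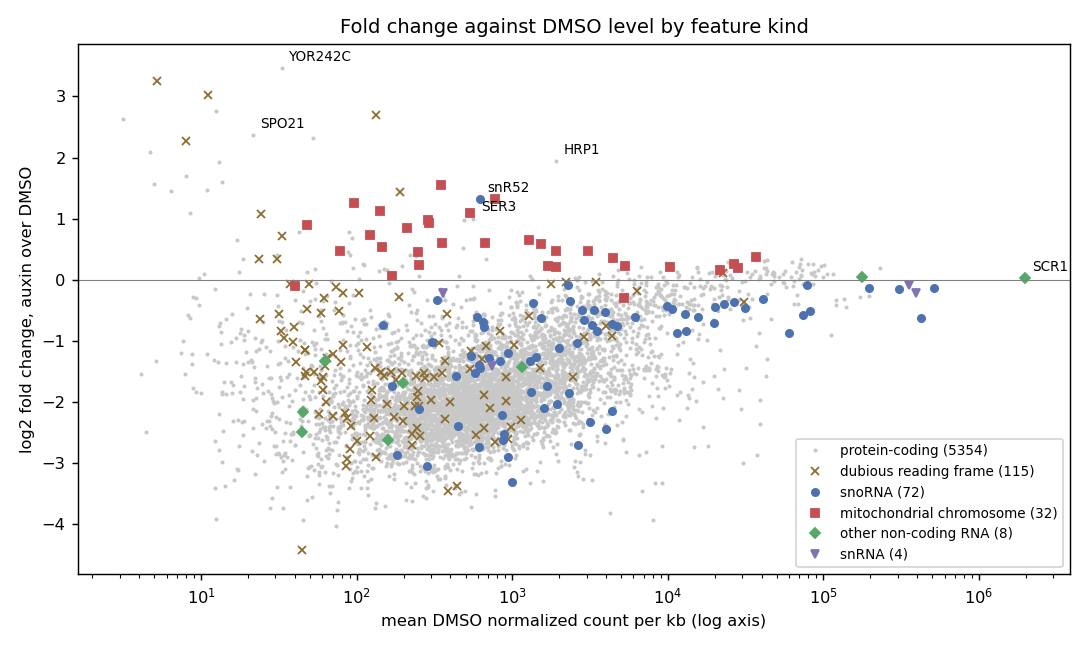
The x axis is the mean DMSO normalized count per kb on a log scale and the y axis the log2 fold change, auxin over DMSO. Each point is a feature, with tRNA genes and pseudogenes left out. Mitochondrial features (red squares) lie between −0.30 and 1.55, and SCR1 lies at 0.02 at the far right.

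Features that rose were few. The 43 called higher were 21 protein-coding genes, 15 mitochondrial features, 6 dubious reading frames and 1 snoRNA. DESeq2's Wald test called 29 of them higher. Of the 28 nuclear ones, 19 were in class 1, but 11 of those had a DMSO mean below 10 raw counts and passed the count minimum only through their auxin libraries.

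The largest rise was that of YOR242C (chromosome XV, 788742 to 789857), annotated as a spore wall protein, with 34 and 40 normalized counts in DMSO and 384 and 422 in auxin. The groups did not overlap, with a log2 fold change of 3.46 ± 0.25 (edgeR adjusted p = 1.01e-40). SPO21 (chromosome XV, 145334 to 147163) rose from 32 and 47 to 182 and 217, and YLR343W, annotated as a glucanosyltransferase of the spore wall, from 91 and 85 to 365 and 514. The sporulation and meiosis list, which holds SPO21 but not YOR242C, did not move one way: 6 of its 15 members were less fallen and 3 further. Its median of 0.60 was 0.30 without DMSO replicate 1 and 0.29 without auxin replicate 2. It was 0.13 with levels from DMSO replicate 1 alone and 0.27 with a minimum of 50 counts. The list's median level class was 1, where features could pass the count minimum through their auxin libraries. Its lowest was SPO22, at −1.20, and its most abundant NDJ1, a telomere protein of meiosis, at −0.84.

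HRP1 (chromosome XV, 87844 to 89448), an RNA-binding cleavage factor for mRNA 3′ ends, lay in the highest level class of all nuclear features that rose. It read 3018 and 3129 normalized counts in DMSO and 10969 and 12623 in auxin, with no overlap and a log2 fold change of 1.94 ± 0.21 (edgeR adjusted p = 1.74e-20). In that class, class 16, 33.3% was left at equal level. YNL251C, annotated as the RNA-binding subunit of the Nrd1 complex, which ends short non-coding transcripts, also rose, from 208 and 115 to 224 and 305. Its lower auxin library lay just above its higher DMSO library. SER3 (chromosome V, 322686 to 324095), a serine synthesis enzyme, rose from 816 and 769 to 1470.4 and 1703. The non-coding SRG1, whose span overlaps that of SER3 by 77 bases, went from 633 and 641 to 221 and 253.

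Other rises among the 12 largest with a mean of at least 100 counts were of mixed kinds. YNL008C, annotated as a subunit of the Asi ubiquitin ligase of the inner nuclear membrane, rose from 967 and 1033 normalized counts to 1769 and 2150.2. The snoRNA snR52, known as a polymerase III transcript in this yeast, rose from 59 and 55 to 124 and 164. The dubious reading frames YER097W (log2 fold change 2.70) and YBR099C (1.44) each overlap another feature. The mitochondrial ones were tP(UGG)Q, a tRNA (1.32), Q0182 (1.10) and Q0115, an intron maturase (0.98). INO1, the inositol synthesis gene and highest member of the lipid synthesis list, lay below that mean count and outside the 12. It was also called higher, from raw counts of 65 and 56 to 126 and 132.

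**Figure D5:**
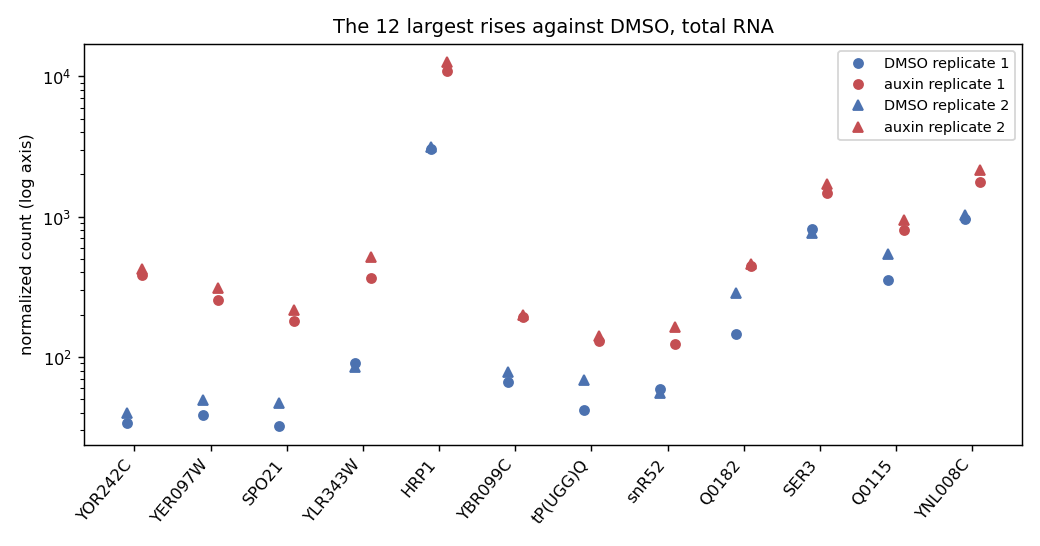
The y axis is the normalized count on a log scale, and the x axis holds 12 features called higher. They had the largest rises among those with a mean of at least 100 counts and no overlap of the groups. Blue points are DMSO and red points auxin libraries. By that choice no red point falls below a blue point of the same feature. HRP1 stands highest, at 10969 and 12623 in auxin.

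Other properties were set against the difference from equal level. Among annotation terms with 10 to 300 tested genes, picked here for their values and not tested, protein refolding (16 genes) had a median of −0.95 and nucleosome (12) of −0.80. Proteins anchored to the outer side of the plasma membrane (12) had a median of 0.74, and metallopeptidases (21) of 0.71. Terms of RNA 3′ end formation were above 0, with snoRNA 3′ end processing (10) at 0.63 and termination of polymerase II transcription (15) at 0.50. Coding length gave no stable order. Of 5 equal groups by length, the longest had a median of 0.16 when level was per kb and −0.07 when it was not, and the shortest had 0.07 and 0.29.

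The share of a transcript that was newly made in DMSO went with its fall. For 2809 nuclear protein-coding features that also stood in the partly held table of 4-thiouracil-labelled RNA, a ratio of new to total DMSO level was formed. Its total level came from the DMSO replicate that the fold change did not use. In the lowest of 5 equal groups by this ratio, 55.1% of the DMSO level was left with replicate 1 in the ratio and 58.6% with replicate 2. In the highest it was 19.9% and 19.1%. Pearson's r across genes was −0.65 and −0.71, with Spearman's rho of −0.53 and −0.61. Once each gene was set against its level class, r was −0.29 and −0.34, and rho was −0.20 and −0.24. Genes are not independent replicates, and the tables were normalized separately. The labelled table, as held here, listed 2821 features of which none had a p above 1.64e-31 in the authors' deposited table, so it is a selected set. Grouped by the ratio within level classes, the lowest group had a median difference from these genes at equal level of 0.29 and 0.25. The other 4 groups lay between −0.09 and −0.01 with replicate 1 and between −0.16 and 0.01 with replicate 2.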

How the data were processed

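Total RNA of 4 samples was sequenced after ribosomal RNA depletion with a stranded kit, per the labels' protocols. The authors deposited whole-number counts for each S. cerevisiae feature, 0 features of S. pombe, and a normalized signal. In value that signal is the count over a library factor (1.09, 0.728, 1.05 and 1.19), also given over length per the file headers. The submitters' processing notes name sacCer3 and bcl2fastq 2.17.1.14. The sources used here do not give the origin of the factors, the aligner, the counter or any strand setting. Of the authors' columns, the deposited log2 fold changes were not used, and the p-values only to see which labelled-RNA features were held.

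Counts were fitted with edgeR 4.0.16 in R 4.3.3 (quasi-likelihood, treatment alone, threshold 0.05, mean of at least 10 counts), checked on simulated data. Library values used a pseudocount of 1. Gene lists (51) were matched to the table's names (2206 in a name column, 523 in descriptions), and members were set against non-members of their class. The calls of further and less fallen, and differences of single features, used the median of the whole class. Members and lists were chosen with earlier results of these data known. Named features are RGR1, SRB4, the 12 largest differences each way, the 12 largest rises and the most abundant feature of each non-coding kind. From a described list they are its most abundant, highest and lowest member, though for some lists fewer or none are named. KAR2, HSP60, HSP10, HXT1, HXT7, SNF3, RPR1, SRG1, YNL251C and YLL016W were added after their values were seen. Replicates differed by a standard deviation of 0.144 (DMSO) and 0.156 (auxin) on the log2 scale over 4671 features. Alternatives were other scalings, count minimums and class numbers, DESeq2 1.42.0, a replicate block and each library left out. Promoter motifs were not analysed here.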

Additional observations from a re-analysis of the deposited data

How the results depend on the processing

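With DESeq2 size factors the median log2 fold change was −0.020, with 1544 features called lower and 1811 higher, and with TMM it was −0.094, with 1805 and 1652. With total counts it was −1.24, with 379 called higher. A minimum of 50 counts left 25 called higher. Leaving out 1 library each gave medians of −1.96 to −1.74, calls of 4896 to 5197 lower and 30 to 47 higher, and 352 to 766 further and 538 to 993 less fallen than equal level. Deviations of same-numbered libraries did not go together (r = −0.12), which cannot show whether the samples were paired. The replicate block gave 5226 lower and 51 higher, and 1036 further and 1336 less. The crossed pairing, chosen after seeing the data, gave 4982 and 37, and 432 and 665. All 20 lists with a median of at least 0.25 in size kept their sign in the 12 alternatives run for lists, as did 29 of the 49. RGR1 changed sign, to −0.023, when level was not divided by length. Depth limits class 1, and the top class spans the widest range of levels. The cause of these shifts was not tested.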
